A study of Mus musculus with 20 samples.

Results

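The expression of 6 small structural RNA genes was followed across the nucleus pulposus and the annulus fibrosus of the mouse intervertebral disc: Rpph1, Rmrp, Rn7sk, Rny1, Rny3 and Terc. They are 6 of the 51789 genes in the deposited expression table and were chosen by gene symbol. The set was put together because Rpph1 was higher in nucleus pulposus libraries from mice given MDL-800, so that contrast chose the members and their values in it are given as a description, without a test. Rpph1, Rmrp, Rn7sk and Rny1 reached 1 FPKM (fragments normalized to transcript length and library size) in at least 5 of the 20 libraries and entered the statistical fit. Terc did not, and Rny3 was listed at 0 in every library.

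The study asked what MDL-800, a small-molecule activator of the deacetylase SIRT6, does to the discs of old mice. BL6 mice were injected into the peritoneum from 18 months of age, for 6 months, with MDL-800 in DMSO or with the same amount of DMSO alone (vehicle), and their discs were taken at 24 months, so vehicle and treated mice alike were aged and had received DMSO. The core of the disc (nucleus pulposus, NP) and its outer fibrous ring (annulus fibrosus, AF) were dissected under a microscope, and total RNA was sequenced as stranded libraries after ribosomal RNA had been depleted. There were 5 libraries in each of the 4 groups, and the groups are called by their tissue and injection, as in NP vehicle or AF MDL-800. The labels name the samples as cells although the protocol describes dissected tissue, they give neither dose nor sex, and they do not say whether animals were pooled or whether the libraries of a group came from separate animals. The p-values therefore measure the spread between these libraries. Library numbers are those in the deposited column names.

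RNase P is a ribozyme: its RNA, made from Rpph1, cuts the leader off precursor transfer RNAs with the help of a set of protein subunits. RNase MRP, whose RNA is made from Rmrp, shares most of those subunits and acts in ribosomal RNA maturation. Rn7sk gives 7SK, the scaffold on which HEXIM proteins hold the elongation kinase P-TEFb inactive. Rny1 and Rny3 give Y RNAs, which bind the Ro60 and La proteins, and Terc gives the template RNA of telomerase. Most of these RNAs are made by RNA polymerase III from promoters that lie upstream of the transcribed sequence, whereas mouse Terc is made by RNA polymerase II.

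The sequence of Rpph1 is shown because its level differed most, and those of both Y RNAs because their lengths bear on whether they were measured. Rpph1 (ENSMUSG00000092837) lies at chr14:50807449-50807767 on the minus strand of GRCm38 (mm10) and is a single exon of 319 nt. The first 300 bases are printed from the GENCODE M21 transcript, 5′ to 3′. Capitals mark a 21-nt stretch at positions 182 to 202 that is repeated in tandem at positions 203 to 223.
Rpph1: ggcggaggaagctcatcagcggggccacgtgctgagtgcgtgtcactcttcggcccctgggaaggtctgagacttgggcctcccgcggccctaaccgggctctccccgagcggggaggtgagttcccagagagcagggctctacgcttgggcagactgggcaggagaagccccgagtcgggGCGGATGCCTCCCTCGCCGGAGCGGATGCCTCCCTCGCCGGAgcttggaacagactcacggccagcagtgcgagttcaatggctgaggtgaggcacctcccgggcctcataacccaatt
Rny1 (ENSMUSG00000065701) is a single exon of 112 nt at chr6:47788069-47788180 on the minus strand. Rny3 (ENSMUSG00000064945) is a single exon of 102 nt at chr6:47781624-47781725 on the plus strand. In both, capitals mark the longest run of bases that the 2 RNAs share, 12 nt long, which starts at position 46 in Rny1 and at position 45 in Rny3.
Rny1: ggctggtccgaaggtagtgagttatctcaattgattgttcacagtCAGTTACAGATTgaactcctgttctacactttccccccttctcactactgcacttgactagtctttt
Rny3: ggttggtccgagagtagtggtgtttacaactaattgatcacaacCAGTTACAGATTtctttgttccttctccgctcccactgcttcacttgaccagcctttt

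The remaining members are single exons too. Rmrp (ENSMUSG00000088088) is 271 nt at chr4:43492788-43493058, Rn7sk (ENSMUSG00000065037) is 331 nt at chr9:78175303-78175633, and Terc (ENSMUSG00000064796) is 423 nt at chr3:96414437-96414859, all on the minus strand. The GC content was 67.1% in Rpph1, 64.2% in Rmrp, 58.0% in Rn7sk, 43.8% in Rny1, 45.1% in Rny3 and 67.1% in Terc, against a median of 49.3% over the tested genes. A search of all annotated transcripts found no other gene in the table that matched a member at 95% identity over 80% of its length. At 80% identity over 50% of the length, 34 annotated genes resembled Rn7sk, and together they reached at most 240.1 FPKM in a library, far under the level of Rn7sk itself.

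The libraries differed in ways that touch small RNAs. Small RNA genes took between 7.67% and 30.2% of the summed FPKM of a library. Most of it was Rn7sk with the signal recognition particle RNAs Rn7s1 and Rn7s2, whose values equalled each other in every library and are both counted. Each library was therefore divided by a factor, between 0.933 and 1.06, taken from the median ratio over 11308 genes detected in all 20 libraries, and the values below are these scaled FPKM. Levels are per length. How the length of short transcripts was handled is not given, so levels of members of unlike length are not directly comparable. Differences are in log2(scaled FPKM + 1), which understates the difference of a low gene. In bulk tissue, fewer cells of a type and less RNA per cell cannot be told apart. The labelled tissues carried their markers: 10 of 10 tested NP markers were higher in NP vehicle than in AF vehicle and 8 of 9 AF markers were lower. The summed NP markers were 27875 to 35887 in NP libraries and 2882 to 16202 in AF libraries. Markers of muscle, blood, neutrophils, B cells, macrophages, bone, fat, nerve and endothelium were also lower in NP (5 to 8 of each list), so the tissue comparisons differ in these cells as well, and their part in the results was not tested. None of the 11 marker lists had a called gene in either treatment comparison, where 0.25% of all tested genes were called in NP and 0 in AF. Several lists still leaned 1 way. In NP with MDL-800, 7 of 10 NP markers had a difference above 0, with a list median of 0.11 and a lowest difference of −0.59. The groups of Krt19, Krt8 and T, 3 of the 10, did not overlap, where 4.5% of all tested genes did not. Krt19 was 0.88 higher on the log2 scale (limma adjusted p = 0.141). In the same comparison 0 of 8 muscle markers and 0 of 7 B and plasma cell markers had a difference above 0. Summed muscle markers were 10.9 to 1216 (median 88.1) in NP vehicle and 12.7 to 254 (median 109) in NP MDL-800. Summed B and plasma cell markers were 155 to 942 (median 209) and 61.4 to 312 (median 244). The median sum of each list was thus higher with MDL-800, although the highest sum was lower. In AF, 7 of 8 bone markers had a difference above 0 (list median 0.71) and 0 of 6 nerve markers did (−0.85). So did 8 of 8 neutrophil markers (0.17) and 6 of 6 endothelial markers (0.12), but 0 of 7 macrophage markers (−0.28). The part of these cells in the treatment differences was not tested.

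Rpph1, the RNA of RNase P, was the member that differed most with MDL-800 in the NP. In NP vehicle it was at 123, 94.97, 181, 452 and 306 in libraries 1, 2, 3, 5 and 6. In NP MDL-800 it was at 817, 1434, 3087, 2398 and 1621 in libraries 15, 18, 19, 20 and 22. Every treated NP library was above every vehicle NP library, and library 15, the lowest of the treated ones, was above library 5, the highest of the vehicle ones. The group means were 231 ± 148 (SD, n = 5) in vehicle and 1872 ± 883 (SD, n = 5) in MDL-800, an 8.09-fold ratio. The log2 difference was 3.10 (SE 0.46, 95% interval 2.08 to 4.13). These values chose the members and carry no test. Over all 16383 tested genes, 738 (4.5%) had NP groups that did not overlap, and limma called 41 (0.25%) at a Benjamini-Hochberg adjusted p under 0.05, of which 38 (0.232%) were higher with MDL-800. The log2 difference of Rpph1 was 2.45 when a trend with GC content was removed from each library and 3.77 when libraries were scaled over 46 small RNA genes.

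In the AF, Rpph1 covered a wide range in both groups. The values were 385, 248, 85.1, 53.5 and 383 in AF vehicle libraries 8, 9, 10, 12 and 13. They were 334, 52.8, 128, 391 and 928 in AF MDL-800 libraries 25, 27, 28, 29 and 30. The ranges overlapped, with libraries 29 and 30 above the vehicle range and library 27 just under it. The means were 231 ± 158 and 367 ± 344 (SD, n = 5 each), and the log2 difference was 0.46 (SE 0.80, 95% interval −1.32 to 2.23, limma adjusted p = 1). That interval holds both no difference and a difference of several fold. Without library 30 the difference was −0.026. In the AF treatment comparison limma called 0 genes (0%) of 16383, and 270 had an unadjusted p under 0.05. The NP difference exceeded the AF difference by 2.65 (SE 0.98) on the log2 scale, a value given without a test because the NP contrast chose the gene.

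Across the groups, mean Rpph1 was highest in NP MDL-800, followed by AF MDL-800, NP vehicle and AF vehicle, and the ranges of the last 3 overlapped. NP vehicle and AF vehicle were 0.16 apart (SE 0.62) on the log2 scale. NP MDL-800 was above AF MDL-800 by 2.81 (SE 0.68, 95% interval 1.30 to 4.31), with the lowest NP library at 817 and the highest AF library at 928. Both tissue differences of Rpph1 are given without a test, because its NP values chose the members. Libraries of 1 group varied widely in Rpph1, with a coefficient of variation of 63.9% in NP vehicle, 47.2% in NP MDL-800, 68.4% in AF vehicle and 93.7% in AF MDL-800. Among single-exon genes within 10 nt of Rpph1 in length, the most common value above 0 in a library was taken as 1 fragment. It was 0.31 to 0.60 FPKM, so Rpph1 rested on about 135 to 6664 fragments in a library. Counting error is small beside the spread between libraries.

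**Figure D1:**
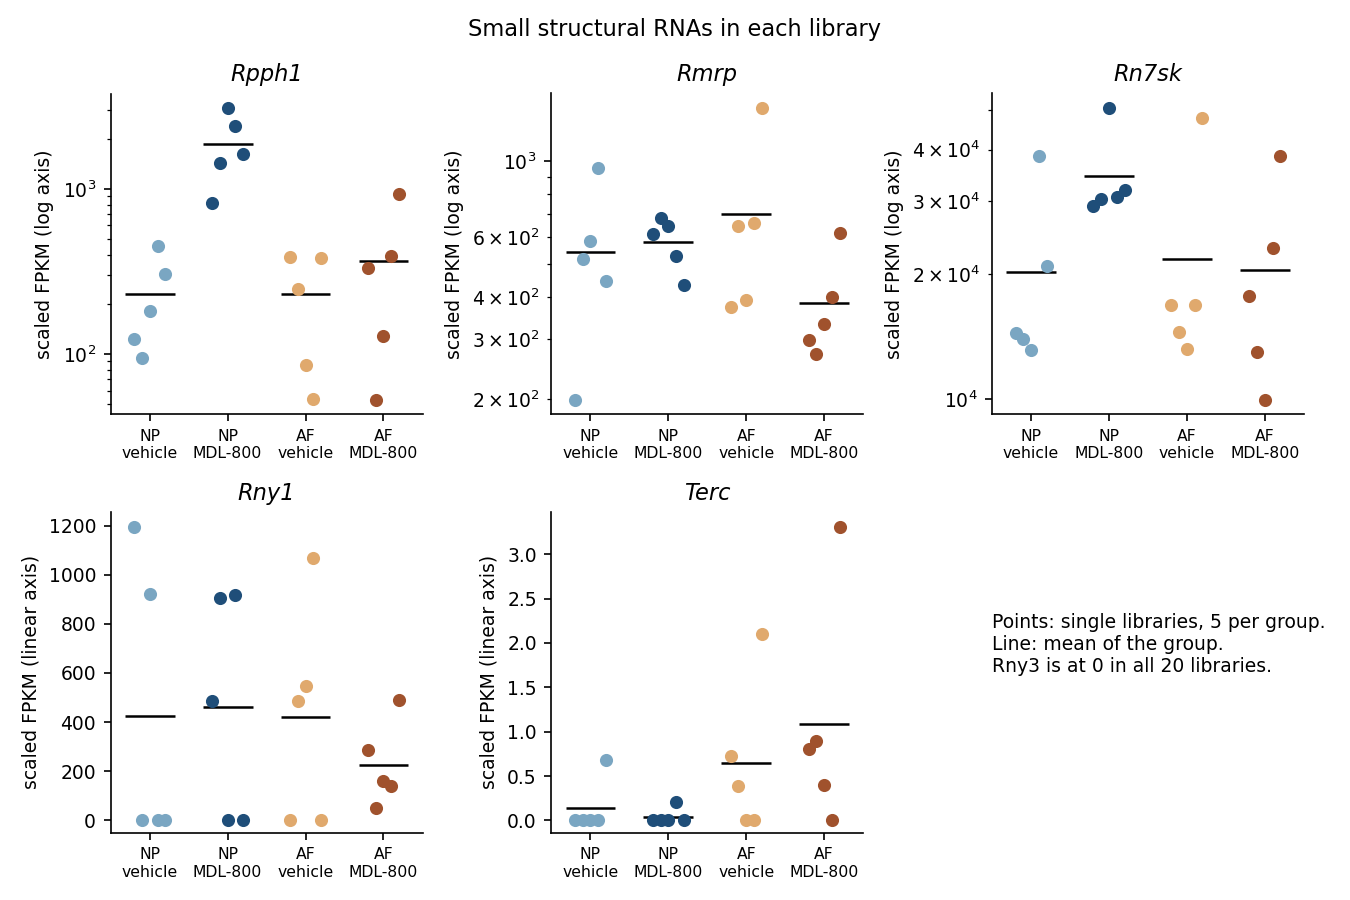
Scaled FPKM of 5 members in each library, by group (points are libraries, lines are group means; the axes of Rpph1, Rmrp and Rn7sk are logarithmic and those of Rny1 and Terc are linear). Rpph1 in NP MDL-800 lies at 817 to 3087, above all NP vehicle libraries, whereas the groups overlap for Rmrp, Rn7sk, Rny1 and Terc.

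Rmrp, the RNA of RNase MRP, did not share the pattern of Rpph1. It was at 199, 517, 583, 960.1 and 447 in NP vehicle and at 614, 684, 648, 528 and 434 in NP MDL-800, in the library order given for Rpph1. The treated libraries fell inside the vehicle range. The means were 541 ± 275 and 582 ± 101 (SD, n = 5 each), with a log2 difference of 0.25 (SE 0.34, 95% interval −0.50 to 1.01) that turned to −0.28 when the GC trend was removed. In the AF it was at 374, 645, 393, 659 and 1436 with vehicle and at 298, 271, 332, 399 and 616 with MDL-800. Library 13 alone set the top of the AF vehicle range, and 2 of the treated libraries lay inside that range. The AF difference of −0.75 (SE 0.37, 95% interval −1.57 to 0.07) did not pass (limma adjusted p = 1), and it was 0.17 with scaling over small RNA genes.

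Between the tissues, Rmrp in NP vehicle and AF vehicle was 0.36 lower in NP on the log2 scale (log2 difference −0.36, SE 0.45, 95% interval −1.34 to 0.63, limma adjusted p = 0.52). In treated mice it was higher in NP than in AF, 582 ± 101 against 383 ± 139 (SD, n = 5 each), a log2 difference of 0.65 (SE 0.22, 95% interval 0.16 to 1.14, limma adjusted p = 0.025). The lowest NP library, at 434, was still below the highest AF library, at 616. The call was lost under 12 of 19 alternatives, among them the unscaled FPKM (0.56, adjusted p = 0.052) and scaling over small RNA genes (0.15, adjusted p = 0.63). It was also lost without any 1 of NP libraries 15, 18 and 19 or AF libraries 25, 27 and 28, with adjusted p between 0.052 and 0.058. In this comparison 10290 of the tested genes (62.8%) passed, 4188 higher in NP (25.6%) and 6102 lower (37.2%), and 1 of the 3 tested members did. In the vehicle comparison 9127 genes (55.7%) passed, 3577 higher (21.8%) and 5550 lower (33.9%), and 0 of 3 members did. The split of these calls moved with the scaling, to 6474 higher and 3925 lower under quantile normalization, 639 and 3882 with scaling over small RNA genes, and 5368 and 4632 with the GC trend removed. The corresponding counts in treated mice were 6919 and 4288, 1316 and 8218, and 5827 and 4994.

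Because RNase P and RNase MRP share most of their protein subunits, the level of 1 ribozyme RNA relative to the other was computed within each library, where scaling cancels. The Rpph1 to Rmrp ratio was 0.615, 0.184, 0.310, 0.471 and 0.684 in NP vehicle and 1.33, 2.10, 4.76, 4.54 and 3.74 in NP MDL-800. Rmrp had the higher FPKM in all 5 NP vehicle libraries and Rpph1 in all 5 NP MDL-800 libraries. The NP values of Rpph1 chose the members and are part of every NP ratio to Rmrp or Rn7sk. The separation of these ratios in NP is therefore a description without a test and no separate evidence. The ratio ran from 0.0812 to 1.03 in AF vehicle and from 0.195 to 1.51 in AF MDL-800, so AF groups overlapped. As a percentage of Rn7sk, Rpph1 was 0.680 to 1.46 in NP vehicle, 2.80 to 7.78 in NP MDL-800, 0.316 to 2.28 in AF vehicle and 0.406 to 2.41 in AF MDL-800. Rmrp as a percentage of Rn7sk overlapped in NP, at 1.38 to 4.43 with vehicle and 1.29 to 2.25 with MDL-800.

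The dependence of expression on GC content also differed between the NP groups. For each library, a slope was fitted of the tested genes' log2 deviations on their GC content. Per 10 percentage points of GC it was −0.285, −0.278, −0.026, −0.049 and −0.0067 in NP vehicle and 0.023, 0.062, 0.059, 0.086 and 0.088 in NP MDL-800. All vehicle slopes in the NP were below 0 and all treated slopes were above it. The AF slopes overlapped, from −0.238 to 0.10 in vehicle and from −0.106 to 0.144 in MDL-800. With the trend removed, the NP difference of Rpph1 was 2.45 and that of Rmrp −0.28, as given above; the part of GC content in them was not tested further.

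**Figure D2:**
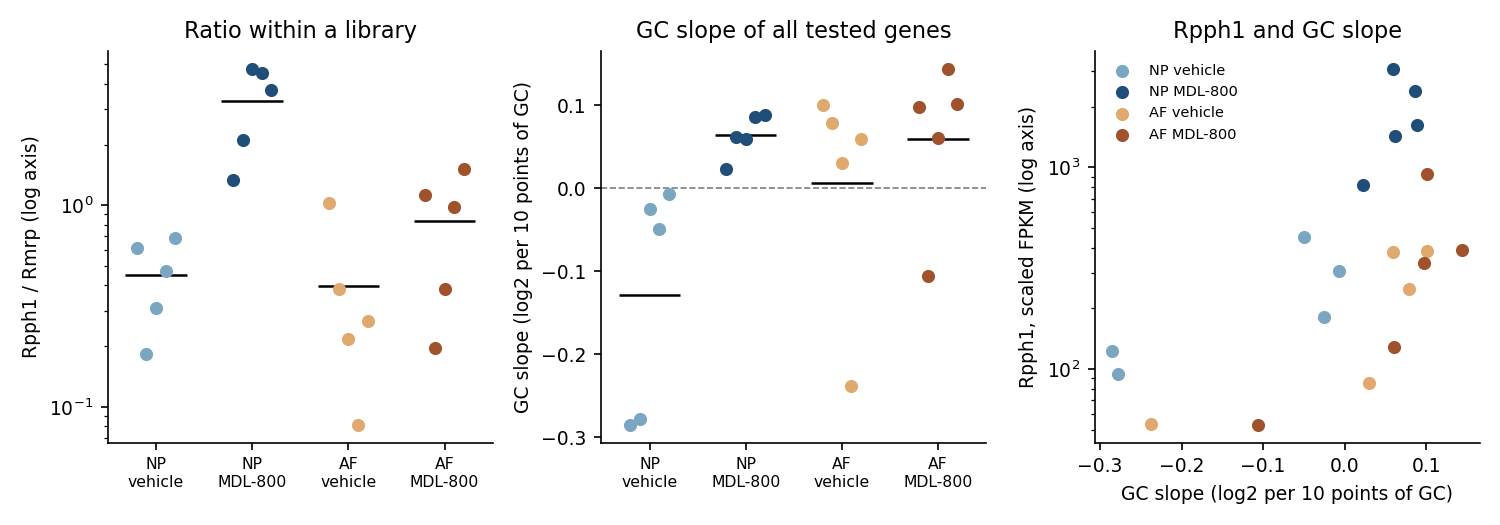
Left, Rpph1 to Rmrp ratio per library by group on a logarithmic axis; middle, slope of log2 expression per 10 percentage points of GC content by group; right, Rpph1 in scaled FPKM against that slope (points are libraries). The ratio is above 1 in all 5 NP MDL-800 libraries and below 1 in all 5 NP vehicle libraries, and the slopes of those groups do not overlap either. The NP values of Rpph1 chose the members, so the NP ratios are a description without a test.

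Rn7sk, which gives 7SK, was the most abundant member in every library. It was at 14476, 13959, 13157, 38617 and 21007 in NP vehicle and at 29243, 30418, 50406, 30813 and 31981 in NP MDL-800. Of the vehicle libraries, 4 lay below all treated ones, and library 5 lay above 4 of the 5 treated ones. The means were 20243 ± 10737 and 34572 ± 8905 (SD, n = 5 each), a 1.71-fold ratio and a log2 difference of 0.87 (SE 0.44, 95% interval −0.11 to 1.85), given without a test. In the AF, Rn7sk was at 16885, 14534, 13239, 16912 and 47641 with vehicle and at 17753, 13009, 9975, 23109.8 and 38526 with MDL-800. The groups overlapped, and the difference of −0.07 (SE 0.56, 95% interval −1.31 to 1.17, limma adjusted p = 1) took the opposite sign without library 13 (0.26). The NP and AF treatment differences were 0.94 apart (SE 0.64).

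In vehicle mice Rn7sk did not differ between the tissues beyond its spread (log2 difference −0.06, SE 0.54, 95% interval −1.26 to 1.14, limma adjusted p = 0.94). In treated mice it was 0.89 higher in NP (SE 0.43, 95% interval −0.06 to 1.83, limma adjusted p = 0.095). Without AF library 30 that difference was 1.15 (adjusted p = 0.031), and under quantile normalization it was −0.20. The mean was highest in NP MDL-800, then AF vehicle, AF MDL-800 and NP vehicle, and the ranges of neighbours in that order overlapped.

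**Figure D3:**
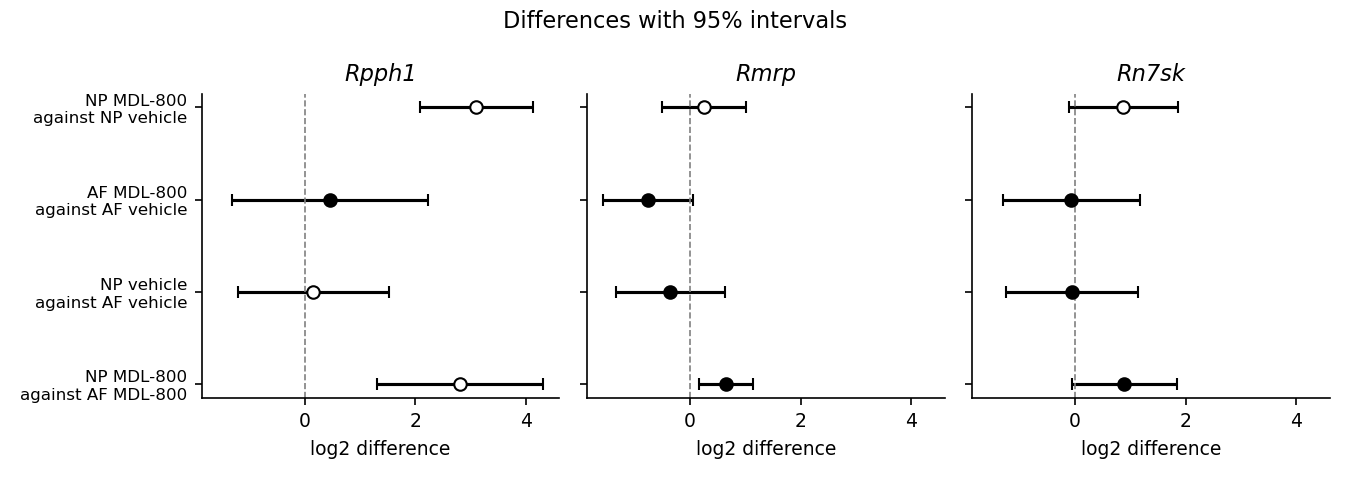
Log2 differences of Rpph1, Rmrp and Rn7sk in the 4 comparisons, with 95% intervals (open circles carry no test because their values chose the members, filled circles were tested with limma). The difference of Rpph1 is 3.10 for MDL-800 in NP and 2.81 for NP against AF in treated mice, both described without a test. Among the tested differences, only the interval of Rmrp for NP against AF in treated mice lies above 0.

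The Y RNAs lay at the lower length limit of these values. The shortest single-exon gene above 0 in any library was 107 nt long, and all 2909 shorter single-exon genes in the table were listed at 0 in all libraries. Rny3, at 102 nt, was among them. Of 1208 other single-exon genes within 5 nt of its length, 4 were above 0 in any library. Its 0 is therefore not a measurement of absence.

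Rny1, at 112 nt, was either listed at 0 or at 49.6 scaled FPKM and above. It was at 1195, 0, 919.8, 0 and 0 in NP vehicle, at 486, 906, 0, 918 and 0 in NP MDL-800, at 0, 487, 545, 1067 and 0 in AF vehicle, and at 285, 49.6, 159, 139 and 490.4 in AF MDL-800. It was above 0 in 2, 3, 3 and 5 libraries of these groups, in that order, and the groups overlapped. In all 7 libraries where Rny1 was listed at 0, the shortest other single-exon gene above 0 was 113 to 115 nt long, longer than Rny1. In the 13 libraries where it was above 0 this shortest gene was 107 to 115 nt long, and in 4 of those it was longer than Rny1. The fitted differences had standard errors of 2.07 to 2.95 on the log2 scale, and none of those tested passed (limma adjusted p = 1 for MDL-800 in AF, 0.66 for the tissues with vehicle and 0.49 with MDL-800).

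**Figure D4:**
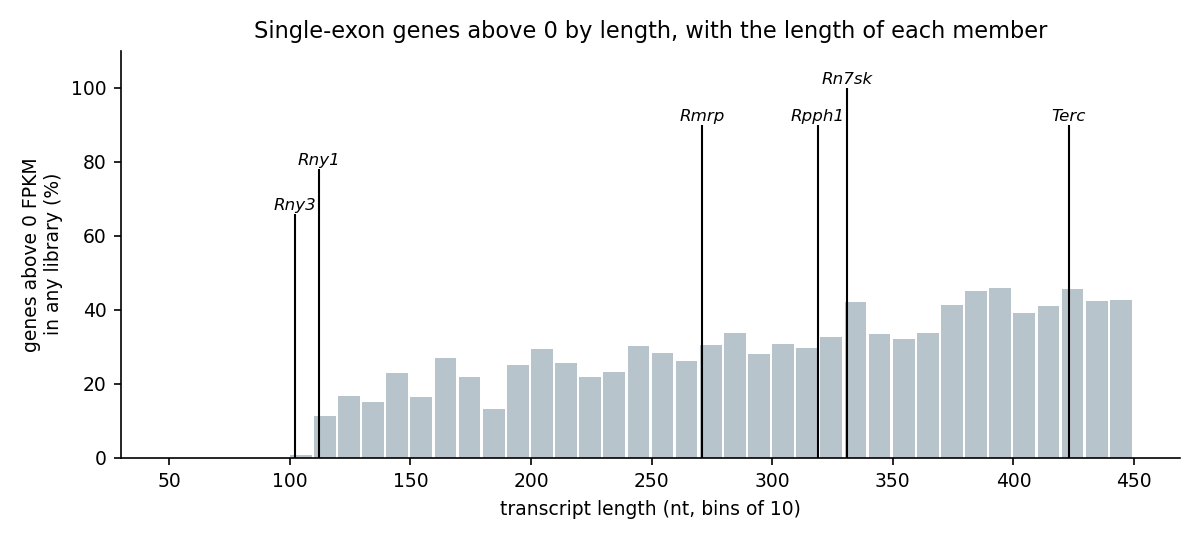
Percentage of single-exon genes above 0 in any library, in bins of 10 nt of gene length, with the lengths of the members marked. Below 107 nt no gene is above 0; Rny3 falls under that length and Rny1 just above it.

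Terc, the telomerase RNA, was close to the detection limit. In NP it was above 0 in 1 library of each group, at 0.681 in vehicle library 6 and 0.212 in MDL-800 library 20. In AF vehicle it was at 0.722, 0.386, 0, 0 and 2.10, and in AF MDL-800 at 0.806, 0.901, 0.395, 0 and 3.31. It was thus above 0 in 3 and 4 AF libraries, and the highest value rested on about 18 fragments. In two-sided exact permutation tests on the 5 libraries of each group, p was 0.0476 for NP against AF in treated mice, 0.286 with vehicle and 0.492 for MDL-800 in AF. After adjustment over these 3 tests they were 0.143, 0.429 and 0.492, where 0.00794 is the smallest raw p that 5 against 5 allows.

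The 5 genes below followed Rpph1 most closely over the 20 libraries. They were Rplp2, a protein of the ribosomal stalk (Pearson r = 0.961), Scamp3, a carrier membrane protein (r = 0.951), Rps29, a small-subunit ribosomal protein (r = 0.949), Rnf126, a ubiquitin ligase (r = 0.947), and Cherp, a nuclear RNA-binding protein (r = 0.947). With group means removed, r was 0.918, 0.896, 0.911, 0.883 and 0.891 in the same order, so libraries within a group also ranked alike. All points share their library, and the r is a description only. Rn7sk had r = 0.80, Rmrp 0.35 and Rny1 −0.18 with Rpph1.

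Rplp2 shows how close the likeness was. It was at 182, 172, 225, 286 and 272 in NP vehicle and at 595, 635, 1019, 1035 and 866 in NP MDL-800, without overlap. In the AF it was at 332, 308, 179, 140.5 and 201 with vehicle and at 384, 132, 198, 415 and 729 with MDL-800, where library 30 was again highest and library 27 lowest. In NP the mean of Rps29 went from 784 to 2157, that of Cherp from 20.0 to 33.1, that of Scamp3 from 28.1 to 45.0 and that of Rnf126 from 10.1 to 19.7. These genes were picked by their likeness to Rpph1 in the same libraries, so their NP differences are no separate evidence and carry no test.

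Rpph1 shares its upstream region with Parp2, which codes for a DNA-damage poly(ADP-ribose) polymerase and is read from the opposite strand. The annotations place the start of Parp2 differently: its first GENCODE M21 start, at 50807841, leaves 73 nt between the genes, and its RefSeq start, at 50807916, leaves 148 nt. The region is shown because both genes read away from it. The 175 bases of the RefSeq promoter window that precede both starts, chr14:50807666-50807840 of GRCm38.p6, are printed on the plus strand. Their first 102 bases are the reverse complement of the start of Rpph1. Capitals mark a TATAA at positions 131 to 135, whose nearest base is 29 bases upstream of the start of Rpph1. The octamer ATTTGCAT lies further on in the window, 93 bases upstream of Rpph1, before the RefSeq start of Parp2 and after its first GENCODE start.
Parp2 promoter window: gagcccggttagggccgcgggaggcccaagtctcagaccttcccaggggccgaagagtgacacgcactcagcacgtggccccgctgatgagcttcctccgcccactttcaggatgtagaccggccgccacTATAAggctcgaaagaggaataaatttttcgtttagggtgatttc
Searched on both strands, the octamer occurred in 1.75% of 32544 RefSeq promoter windows, TATAA in 24.8% and both in 0.602%.

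In NP, Parp2 was at 9.70, 8.70, 4.90, 7.84 and 8.93 with vehicle and at 7.43, 7.71, 7.12, 6.00 and 8.23 with MDL-800, and the groups overlapped (log2 difference −0.10, SE 0.16, limma adjusted p = 0.84). It was lower in NP than in AF with vehicle, 8.01 ± 1.86 against 12.0 ± 1.35 (log2 difference −0.56, limma adjusted p = 0.013), and with MDL-800, 7.30 ± 0.832 against 13.3 ± 1.19 (−0.79, adjusted p = 5.99e-05; SD, n = 5 each). Of 9 tested genes that neighbour or overlap a member, the furthest lying 192727 nt from its member, 0 passed in either treatment comparison. Limma called 0.25% of all tested genes for MDL-800 in NP and 0 in AF. In each tissue comparison 6 of the 9 passed, 1 higher and 5 lower in NP, where 55.7% of all tested genes passed with vehicle and 62.8% with MDL-800. Annotated exons overlap 2 of the members. In GENCODE M21 an exon of the cell-cycle gene Ccnb1ip1 lies within Rpph1 on the same strand and covers 233 of its 319 bases. The mean of Ccnb1ip1 was at most 0.066 in any group. Rmrp lies within an exon of a second annotation of the same name that is not in the table, and 124 of its 271 bases lie in an exon of Ccdc107 on the opposite strand. How fragments in these overlaps were assigned is not given in the sources used here.

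The protein partners of these RNAs were followed through 7 lists. Limma called 0.25% of all tested genes for MDL-800 in NP and 0 in AF. Of the partner genes, 0 of 70 tested passed in NP and 0 of 70 in AF, which is near those shares. Their median log2 difference was −0.07 in NP, where the median of all tested genes was −0.03, and 0.02 in AF, where it was 0.01. Among the subunits of RNase P and RNase MRP, 10 of 11 were tested. Rpp21, a subunit of RNase P, was at 17.9 ± 2.63 with MDL-800 and 10.9 ± 3.43 with vehicle in NP (log2 difference 0.70, limma adjusted p = 0.115). Rpp25l, related to the subunit Rpp25, was at 9.81 ± 1.22 and 5.10 ± 2.53 (0.94, adjusted p = 0.158; SD, n = 5 each). For these 2 of the 10 subunits the NP groups did not overlap, where 4.5% of all tested genes had such groups, and the median over the 10 was −0.08.

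In the 7SK particle and P-TEFb list, Hexim1, the inhibitor held on 7SK, was at 12.7 ± 2.03 with MDL-800 and 7.76 ± 2.28 with vehicle in NP (SD, n = 5 each), without overlap between the groups (a background of 4.5%; log2 difference 0.68, limma adjusted p = 0.151). The kinase subunit Cdk9 was at 32.1 and 30.6. The list's median was 0.08 over 7 tested genes. In the Y RNA list, Trove2, which codes for Ro60, was at 8.36 and 10.0, with 6 genes tested. When libraries were scaled over small RNA genes, 29 of the 70 partner genes (41.4%) passed in NP, all higher with MDL-800, as did 6042 (36.9%) of all tested genes, 6030 of them higher, while the median of all tested genes moved from −0.03 to 0.50. In AF that scaling moved the median of all tested genes to 0.80 and 0 of the 70 passed, where 19 (0.116%) of all tested genes did.

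Between the tissues, 55.7% of all tested genes passed with vehicle and 62.8% with MDL-800, 37.2% being lower in treated NP. Below those shares, 0 of the 10 RNase P and MRP subunits passed with vehicle and 3 with MDL-800, all lower in NP. These were Pop1, the largest shared subunit, at 2.12 ± 0.166 against 3.56 ± 0.732 (SD, n = 5 each; log2 difference −0.53, limma adjusted p = 0.00271), Pop5 (−0.47, adjusted p = 0.0214) and Rpp14 (−0.46, adjusted p = 0.0371). Pop1 was at 0.01 under quantile normalization, and under that scaling 2 subunits were called, both higher in NP. Of 5 tested enzymes that process transfer RNA ends by other routes, 2 passed with vehicle, 1 in each direction, also below the share of all tested genes. Elac2, the long form of the enzyme that trims the trailer, was lower in NP with vehicle (−0.39, limma adjusted p = 0.0329). Its short relative Elac1 was higher (0.41, limma adjusted p = 0.0119).

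Over all 7 lists, 23 of the 70 partner genes (32.9%) passed with vehicle and 36 (51.4%) with MDL-800, below the 55.7% and 62.8% of all tested genes. With vehicle 10 were higher in NP and 13 lower, and with MDL-800 15 were higher and 21 lower. The split again turned with the scaling, to 28 higher and 5 lower with vehicle and 29 and 11 with MDL-800 under quantile normalization, and to 22 and 7, and 25 and 12, with the GC trend removed. With scaling over small RNA genes, 0 were higher and 1 lower with vehicle, and 1 and 39 with MDL-800. The genes named next kept their sign under each of these scalings. Of the Y RNA list Ptbp1, a splicing repressor, was lower in NP, 45.4 ± 7.34 against 89.0 ± 17.1 with vehicle (log2 difference −0.95, limma adjusted p = 0.000384). In the telomerase list 10 genes were tested, and 6 passed with vehicle (2 higher in NP, 4 lower) and 7 with MDL-800 (2 higher, 5 lower). Of these Dkc1, the dyskerin that binds the telomerase RNA, was lower in NP, at 17.4 ± 4.20 against 36.7 ± 4.90 with MDL-800 (−1.05, limma adjusted p = 0.00016). Gar1 and Nhp2, its partners in the same particle, were lower with vehicle as well (−0.68 and −0.65, adjusted p = 0.00143 and 0.00498).

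Of 19 tested genes for RNA polymerase III initiation and control, 9 passed with vehicle (5 higher in NP, 4 lower) and 12 with MDL-800 (8 higher, 4 lower). These counts are near the background, where 55.7% of all tested genes passed with vehicle and 62.8% with MDL-800. The split reached 1 higher and 8 lower with MDL-800 under scaling over small RNA genes. Snapc1, a subunit of the complex that binds the upstream element of Rpph1-type promoters, was higher in NP, 10.6 ± 1.01 against 4.98 ± 0.800 with vehicle (log2 difference 0.96, limma adjusted p = 7.9e-05). Zfp143, an activator of such promoters, was lower in NP, 5.02 ± 0.909 against 8.20 ± 1.43 (−0.61, adjusted p = 0.00489). Of 13 tested polymerase III subunits, 3 passed with vehicle (1 higher in NP, 2 lower), below the share of all tested genes. Polr3g was higher in NP, 4.79 ± 1.21 against 2.23 ± 0.360 (0.82, limma adjusted p = 0.00136). Polr1d, shared with polymerase I, was lower, 29.4 ± 1.94 against 41.1 ± 4.43 (−0.46, limma adjusted p = 0.00168). Values after ± are SD, with n = 5 each. These 4 genes kept their sign under every scaling.

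Other small structural RNAs had no called gene with MDL-800. Of 20 tested, which count Rn7s1 and Rn7s2 separately although their values were equal, 0 passed in NP or AF treatment. Limma called 0.25% of all tested genes in NP and 0 in AF. The median log2 difference of the 20 was −0.46 in NP and −0.79 in AF, or 0.018 and −0.106 with scaling over small RNA genes. The U1 gene Rnu1a1 was at 135 ± 46.5 with MDL-800 and 249 ± 42.5 with vehicle in NP (SD, n = 5 each; log2 difference −0.92, limma adjusted p = 0.074). The U2 gene Rnu2-10 was at 40.1 and 76.7 in NP (adjusted p = 0.19), and at 18.2 and 71.9 in AF (adjusted p = 1). Between the tissues with vehicle, Rnu12, the U12 RNA of the minor spliceosome, was the only 1 of the 20 to pass, where 55.7% of all tested genes did. Its NP level was 24.7 ± 11.6 against 5.01 ± 5.95 in AF (SD, n = 5 each; log2 difference 2.75, limma adjusted p = 0.00858). With MDL-800, 7 of the 20 passed, 5 higher and 2 lower in NP, against 62.8% of all tested genes, and 4 passed with scaling over small RNA genes, 2 in each direction. Over all 149 tested small RNA genes other than the members, the median was −0.38 for MDL-800 in NP and −0.54 in AF, with 40 and 36 genes above 0. Limma called 0 of them in each, beside the 0.25% and 0 of all tested genes.

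**Figure D5:**
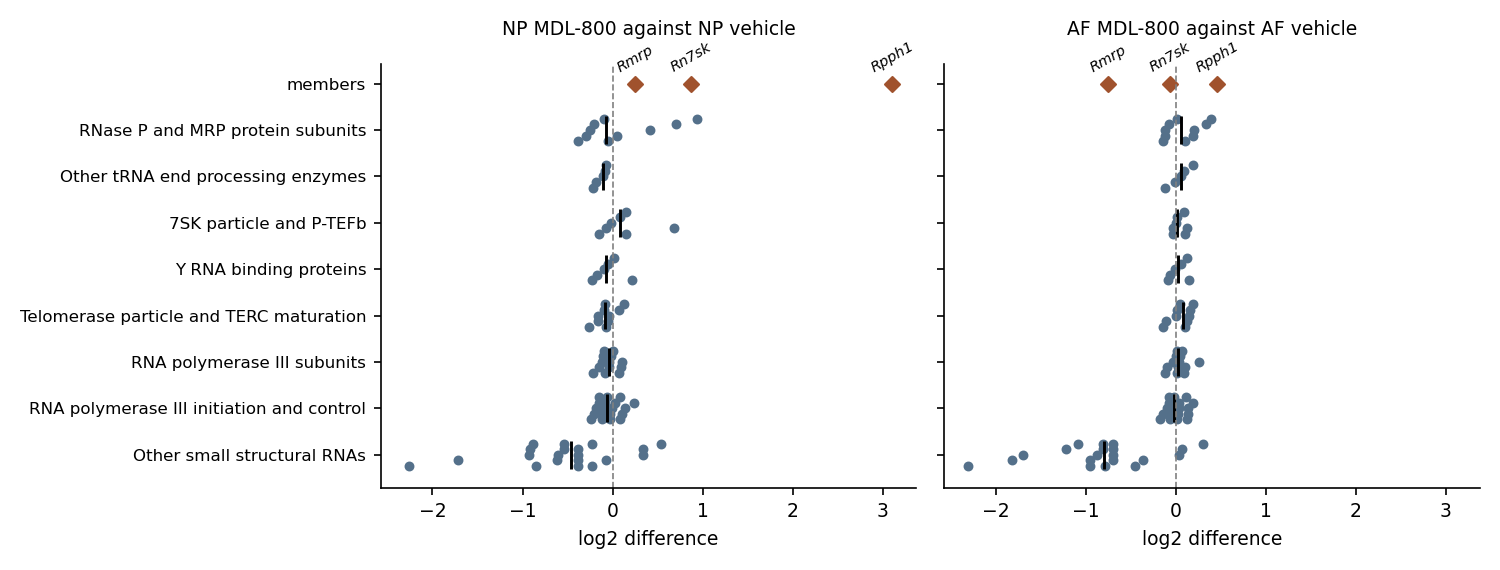
Log2 differences between MDL-800 and vehicle for the tested genes of each list, in NP and AF (points are genes, ticks are list medians, diamonds are Rpph1, Rmrp and Rn7sk). Medians of the protein lists lie near 0, and that of the other small structural RNAs lies at −0.46 in NP (0.018 with scaling over small RNA genes) and −0.79 in AF.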

How the data were processed

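The deposited table holds FPKM values per gene and library, rounded to 2 decimals, made by the authors from stranded total RNA libraries; the submitters' processing notes name STAR 2.7.11b and mm10, and the counting program, annotation and its handling of short transcripts are not given in the sources used here. Of 51789 gene IDs, 51596 are in GENCODE M21, which gave lengths, positions and sequences. The table holds no counts, so depth was read only from the most common value above 0 among genes of similar length, taken as 1 fragment. From the FPKM, scaled values (median ratios over 11308 genes) were taken as log2(value + 1), 16383 genes with 1 FPKM or more in 5 or more libraries were kept, and each pair of groups was fitted with limma 3.58.1 (trend, two-sided, Benjamini-Hochberg over all tested genes, threshold 0.05) in R 4.3.3. Terc, outside the fit, had exact permutation tests. Sequence matches used BLAST 2.17.0; other steps used Python 3.11.15, pandas 2.3.3 and numpy 2.4.6.

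The members, lists and rules were chosen with earlier results of these data known. The text names the members, the 5 genes most like Rpph1 and, from each list, up to 4 called genes by smallest p, or up to 2 where none passed. The rule also covered the nearest gene on each side of a member. Of these the text names only Parp2, and of the overlapping genes Ccdc107 and Ccnb1ip1. Cdk9 with its NP values, and Ccnb1ip1, were named after their values were seen. Alternatives were other pseudocounts (0.1), filters, scalings, a GC correction, all groups in the fit and each library left out; fits with the number shared by NP and AF column names were chosen after seeing the data. On simulated data for NP (16383 genes), 163 of 200 genes given a log2 change of 1 were found (81.5%), with 9 false calls. For AF, 127 (63.5%) were found, with 7 false calls. The simulated noise was independent between genes and lacked the variation that genes of 1 library share, so these rates may not hold for the real libraries.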

Additional observations from a re-analysis of the deposited data

Results flagged for a closer look

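Of 24 sets of 5 libraries examined (20 of the members other than Rny3, and 4 of the Rpph1 to Rmrp ratio), 6 had 1 library far from the other 4. In 2 of these, Terc was at 0 in 4 libraries, so that the remaining library stands apart by construction. Of the other 22 sets, 4 were picked out. For the members the rule was applied to scaled FPKM without logs. Its rate of about 1 in 20 sets holds for untied, normally distributed values, so the 4 sets are not compared with it. AF vehicle library 13 was high in both Rmrp, at 1436 scaled FPKM, and Rn7sk, at 47641. NP MDL-800 library 19 was high in Rn7sk, at 50406. For Terc, NP vehicle library 6 at 0.681 and NP MDL-800 library 20 at 0.212 were the only libraries of their groups above 0, and AF MDL-800 library 30 was high at 3.31.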

How the results depend on the processing

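Of 288 values recomputed, 253 kept their direction and call or moved within the spread, and 20 changed sign, none of them called by a test. The number of genes called for MDL-800 in NP, 41, was 18 without scaling, 70 with quantile normalization, 6042 with scaling over small RNA genes, 7 without a filter and 4 with all 4 groups fitted, and 2 to 189 with 1 library left out; 0 in AF became 19 with small RNA scaling and 0 to 1 with 1 library left out. With vehicle, 9127 genes between the tissues became 4521 with small RNA scaling.

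The cause of each change below was not tested. With small RNA scaling, Rmrp in AF became 0.17, Rn7sk in AF 0.85 and Rpph1 between vehicle tissues −0.10; with quantile normalization, Rn7sk became 0.20 in AF and −0.20 between treated tissues; with the GC trend removed, Rmrp became −0.28 in NP and Rn7sk 0.22 between vehicle tissues. With 1 library left out, Rmrp in NP ran from −0.063 to 0.50, Rpph1 in AF from −0.026 to 1.00, Rn7sk in AF from −0.34 to 0.26, and between vehicle tissues Rpph1 ran from −0.27 to 0.44 and Rn7sk from −0.32 to 0.27. Rpph1 in NP ran from 2.84 to 3.40 with 1 library left out. The higher Rmrp of treated NP lost its call without a filter (adjusted p = 0.056) and with all 4 groups fitted (0.139), beside the alternatives given above.

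NP and AF columns share numbers that the labels do not explain. Same-numbered libraries correlated at −0.178 to 0.285 over 5 vehicle pairs and −0.176 to 0.171 over 3 MDL-800 pairs, which does not settle whether equal numbers mark the same mouse; 1 NP library in each treatment matched its own number best. A replicate block gave 8783 called genes in place of 9127 with vehicle and 7858 in place of 8303 in the same MDL-800 libraries, and Rmrp there was 0.47 with the block (adjusted p = 0.34) and without it (0.27). FPKM rounded to 2 decimals and a limit near 107 nt bound what can be said of Terc and the Y RNAs.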
